A study of Mus musculus with 2 samples.

Results

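The genes described are subunits and feedback regulators of NF-kappaB in splenic regulatory T cells (Tregs): the subunit genes Rel, Rela, Relb, Nfkb1 and Nfkb2, the inhibitor genes Nfkbia and Nfkbid, and the signalling regulators Tnfaip3, Birc3 and Traf1. They were picked by name, as every probe set of the platform annotation that carries exactly 1 gene symbol from this set of 10. Of the 10 genes, 9 had such a probe set, 17 probe sets in all, out of 18193 genes and 34945 probe sets with a single gene name. Nfkb1 has none in the annotation used here and was not analysed.

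One array carried RNA of CD4+Foxp3+ Tregs from DNR mice, which have a dominant negative form of TGF-beta receptor II and so respond poorly to the cytokine TGF-beta. The other carried RNA of the same cell type from wild-type (WT) mice. Both groups were 10 weeks old and on the C57BL/6 background, the DNR mice were naive per the labels' protocols, and the cells were sorted from the spleen by flow cytometry. The sources used here name neither the promoter that drives the receptor, nor the cells that carry it, nor the number of mice per RNA. The question was how gene expression of Tregs differs between these mice. With 1 array per genotype there is no spread between samples and no test, so every difference is one between these RNA samples.

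NF-kappaB is a family of transcription factors whose subunits share a Rel homology domain and bind DNA as pairs. In resting cells, inhibitors of the IkB type hold the pairs in the cytoplasm. Signals from the T cell receptor and from TNF family receptors lead to destruction of the inhibitor, or to processing of the Nfkb2 precursor in the slower, noncanonical branch, and free pairs enter the nucleus. Several of the genes they switch on, Nfkbia and Tnfaip3 among them, encode proteins that shut the pathway off again, so their transcripts are widely used as a readout of its activity. In mice, c-Rel is needed for normal numbers of Foxp3+ Tregs.

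The promoters of the genes were searched for letters that NF-kappaB is known to bind. The RefSeq promoter windows (build GRCm38.p6, 250 bases before to 50 after an annotated start) were read on both strands for the kappaB consensus, the 10-base site that NF-kappaB pairs bind, and overlapping matches were joined. Windows existed for 8 of the 10 genes, 13 windows in all. A match was present in 7 of the 13 windows and in 5 of the 8 genes, against 8.46% of all 32851 windows and 9.55% of the 27025 genes with a window. For each gene the window with most matches before the start is shown, with up to 20 bases on each side, 5′ to 3′ on the gene's strand and ending at the start site at the latest, with the matches in capitals.
Rel promoter, chr11:23771031-23771081, minus strand: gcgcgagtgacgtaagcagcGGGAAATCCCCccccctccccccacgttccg
Nfkb2 promoter, chr19:46304678-46304736, plus strand: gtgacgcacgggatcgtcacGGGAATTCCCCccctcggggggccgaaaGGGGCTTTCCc
Nfkbia promoter, chr12:55492648-55492696, minus strand: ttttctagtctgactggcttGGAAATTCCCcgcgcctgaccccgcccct
Nfkbid promoter, chr7:30422160-30422254, plus strand: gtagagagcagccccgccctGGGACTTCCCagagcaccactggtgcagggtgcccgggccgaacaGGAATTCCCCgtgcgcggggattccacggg
Tnfaip3 promoter, chr10:19015411-19015555, minus strand: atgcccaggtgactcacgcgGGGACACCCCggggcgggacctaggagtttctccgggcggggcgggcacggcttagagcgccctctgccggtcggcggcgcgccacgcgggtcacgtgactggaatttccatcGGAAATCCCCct

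These stretches are shown because several of these genes are known as targets of NF-kappaB itself. The match began 29 bases before the start of Nfkbia and 92 bases before that of Rel. Nfkb2 had matches at 39 and 11 bases in the window shown, and Tnfaip3 at 125 and 12 bases. Those of Nfkbid lay farther off, at 226 and 181 bases. The windows of Rela, Birc3 and Traf1 did not hold these letters. A match is a run of letters and was not measured as a binding site.

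None of the 9 measured genes differed by 2-fold between the genotypes. At least 2-fold higher in DNR Tregs were 0 of 9, against 4.00% of the 11927 genes measured on these arrays, and at least 2-fold lower were 0 of 9, against 2.93%. A gene was measured if its probe set was above a floor, a signal of 110.9, on at least 1 array, and where a gene had several probe sets the one with the highest mean signal stood for it. By any amount, 4 of the 9 were higher in DNR Tregs, against 51.4% of all measured genes. The median log2 ratio of DNR over WT was -0.10 over the 9 genes and 0.01 over all measured genes. With so few genes, shares near these backgrounds say nothing particular about the set.

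The genes were well above the floor. All 9 were above it on both arrays, which held for 51.0% of the 18193 genes, and so were all 17 probe sets, against 45.0% of all named probe sets. The lowest signal among the 17 was 309, so no ratio given for these genes is a bound. The median size of the log2 ratio, without its sign, was 0.22 in this set and 0.27 over the 9281 genes that exceeded the floor on each array. The most different of the 9 genes, Birc3, differed by 1.32-fold, and 65.0% of the 9281 genes differed by less than that. As a measure of error, probe sets of 1 gene were set against each other, which gave a robust SD of 0.39 for the log2 ratio of a probe set over the 3968 genes that allowed it. By that measure 8 of the 9 genes were within 1 SD of no difference, as were 64.3% of the 9281 genes, and Birc3, at -0.40, was just outside. This SD holds no variation between mice or sorts.

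**Figure D1:**
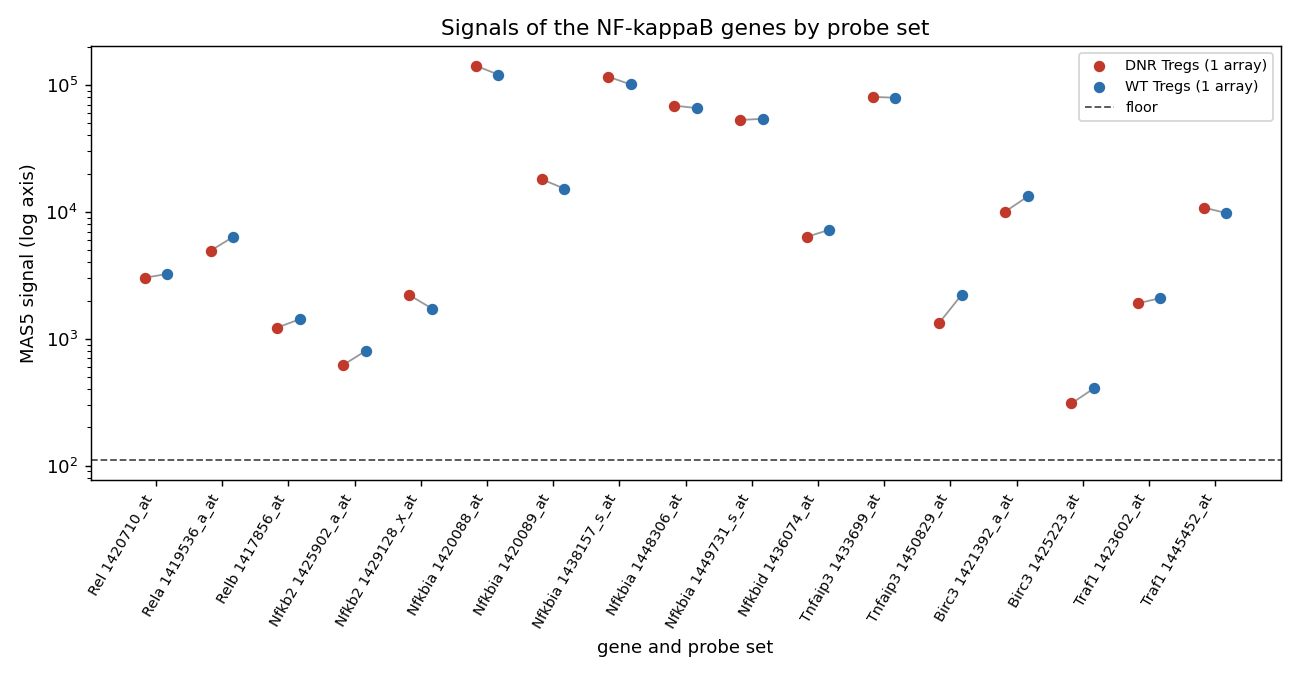
MAS5 signal (log axis) of each of the 17 probe sets on the DNR array (red, left) and on the WT array (blue, right), with the floor of 110.9 dashed. The points of a probe set lie at nearly the same height, and the lowest, for Birc3, is at 309.

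Among the subunits, those measured with 1 probe set were slightly lower in DNR Tregs. Rel, which encodes c-Rel, the subunit most tied to T cell receptor signals, had a signal of 3023 in DNR Tregs and 3240 in WT Tregs, a log2 ratio of -0.10. Rela, which encodes p65, the main activating subunit of the canonical branch, had 4956 against 6356, a log2 ratio of -0.36. Relb, the activating subunit of the noncanonical branch, had 1224 against 1423, a log2 ratio of -0.22. The differences were thus 1.07-fold, 1.28-fold and 1.16-fold, all in the same direction and all under the robust SD.

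Nfkb2, whose precursor p100 is both an inhibitor and the source of the noncanonical partner p52, has 2 probe sets that went opposite ways. Probe set 1429128_x_at had 2206 in DNR Tregs and 1728 in WT Tregs, a log2 ratio of 0.35. Probe set 1425902_a_at had 622 against 802, a log2 ratio of -0.37. The suffix _x_at marks probes that can also bind other transcripts. The direction of Nfkb2 therefore depends on the probe set, and the median over both was -0.01.

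Nfkbia, which encodes IkB-alpha, the inhibitor that NF-kappaB induces and that is destroyed on each signal, was the gene with the most probe sets. Probe set 1420088_at had 141976 in DNR Tregs and 120748 in WT Tregs, a log2 ratio of 0.23. Probe set 1420089_at had 18045 against 15227, a log2 ratio of 0.24, and 1438157_s_at had 116365 against 100967, a log2 ratio of 0.20. In these 3 the DNR signal was higher by 1.15-fold to 1.19-fold, but with quantile normalization the log2 ratio of Nfkbia was 0.02. Probe set 1448306_at had 68728 against 65732, a log2 ratio of 0.06, and 1449731_s_at had 52992 against 54103, a log2 ratio of -0.03. Of the 5 probe sets, 4 were thus higher in DNR Tregs, with a median log2 ratio of 0.20 and a range of 0.27 from lowest to highest.

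Nfkbid encodes IkB-NS, a nuclear IkB protein that in mice acts in Treg development by promoting Foxp3 expression. Its signal was 6347 in DNR Tregs and 7214 in WT Tregs, a log2 ratio of -0.18. Foxp3 itself had 4550 against 3754, a log2 ratio of 0.28. The 2 genes thus differed in opposite directions, each by less than 1 robust SD.

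Tnfaip3 encodes A20, a ubiquitin-editing enzyme that ends signalling from TNF receptors and the T cell receptor. Its probe set 1433699_at had 80522 in DNR Tregs and 79340 in WT Tregs, a ratio of 1.01-fold. Its second probe set, 1450829_at, had 1331 against 2216, a log2 ratio of -0.74, or 1.67-fold lower. That was the most different of the 17 probe sets. The probe sets differed by 0.76 in log2 ratio, the widest range among the 5 genes with several probe sets, ahead of Nfkb2 at 0.72.

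Birc3, which encodes the ubiquitin ligase cIAP2, a partner of TRAF adaptors at TNF receptors and itself an NF-kappaB target, was lower on both of its probe sets. Probe set 1421392_a_at had 10051 in DNR Tregs and 13226 in WT Tregs, and 1425223_at had 309 against 407. Both gave a log2 ratio of -0.40, or 1.32-fold lower. Among the 5 genes with several probe sets, Birc3 was the only one whose probe sets all had the same sign.

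Traf1, an adaptor induced by NF-kappaB that joins TRAF2 at receptors such as 4-1BB, had 10804 in DNR Tregs and 9771 in WT Tregs with 1445452_at, a log2 ratio of 0.15. With 1423602_at it had 1898 against 2090, a log2 ratio of -0.14. The signs were opposite and the median over both was near 0. Over all 17 probe sets, 7 were higher and 10 lower in DNR Tregs.

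**Figure D2:**
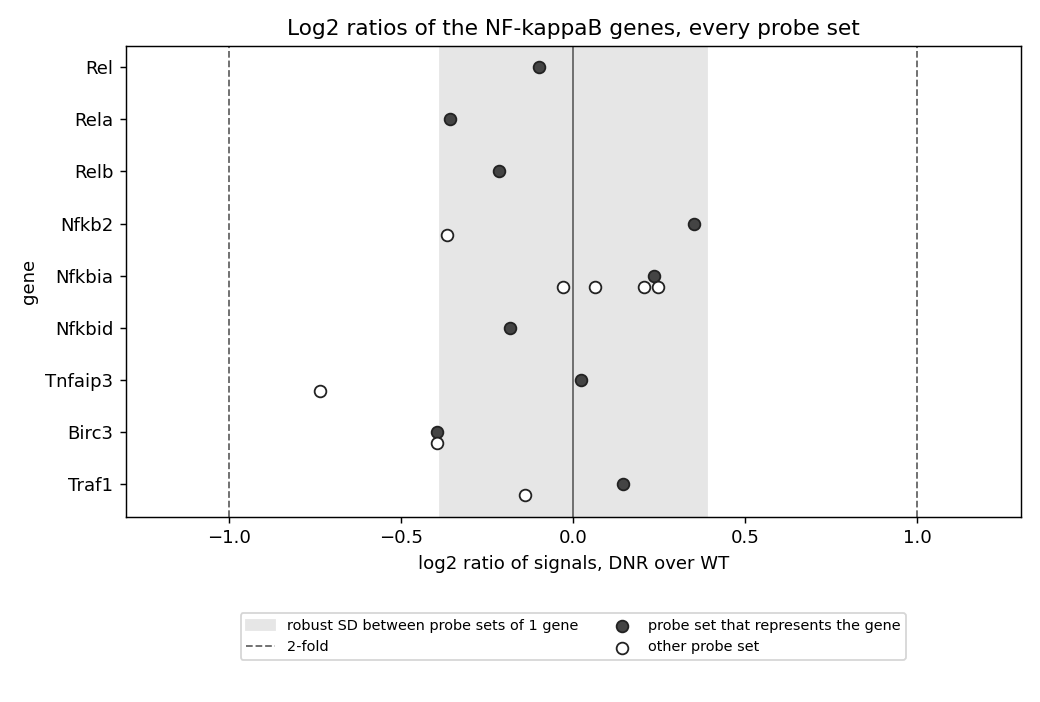
Log2 ratio of signals, DNR over WT, of every probe set of the 9 genes; filled points are the probe sets that stand for the gene, open points (drawn lower) the others, the grey band is the robust SD of 0.39 either side of 0 and the dashed lines are 2-fold. No point reaches 2-fold, and the farthest is the second probe set of Tnfaip3 at -0.74.

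The other steps of the pathway were read from gene lists. Of all 11927 measured genes, 51.4% were higher in DNR Tregs, 4.00% at least 2-fold higher and 2.93% at least 2-fold lower. Each count below stands beside these shares, and with so few genes per list, shares near them say nothing particular about a list. Where 5 or fewer genes of a list lay on one side and are named for that, they were chosen after their values were seen. Of the other IkB genes, 4 of 4 were measured, 3 were higher in DNR Tregs, 1 was lower and 0 differed by 2-fold. Bcl3, a nuclear IkB protein that works with the p50 and p52 subunits, had 1636 in DNR Tregs and 1187 in WT Tregs, a log2 ratio of 0.46. Nfkbie and Nfkbiz were the others on the higher side, with log2 ratios of 0.37 and 0.36, though that of Nfkbie was as low as 0.17 with other processing choices. Nfkbib, which encodes IkB-beta, had 562 against 879, a log2 ratio of -0.65, but -0.14 without probe sets ending in _s_at or _x_at. The median of the list was 0.37, or 0.26 without such probe sets and 0.31 with the middle value of each gene's probe sets.

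Of 18 genes for kinases and adaptors between the receptors and the IkB kinases, 14 were measured and the other 4 were not analysed here. Of the 14, 5 were higher in DNR Tregs and 9 lower, with a median log2 ratio of -0.19, or -0.01 with the middle value of each gene's probe sets. The 5 were Malt1, Tab1, Tradd, Ikbkg and Traf2. Malt1, the paracaspase of the complex that links the T cell receptor to NF-kappaB and that cleaves A20, was the one gene past 2-fold. It had 3018 in DNR Tregs and 1447 in WT Tregs, 2.09-fold higher.

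The remaining probe sets of Malt1 were also higher in DNR Tregs. Probe set 1445068_at had 410 in DNR Tregs and 198 in WT Tregs, a log2 ratio of 1.05. Probe set 1456429_at had 2346 against 1276, a log2 ratio of 0.88. Bcl10, the partner of MALT1 in that complex, had 4632 against 6191, a log2 ratio of -0.42. Map3k14, which encodes NIK, the kinase that starts the noncanonical branch, had 433 against 752, a log2 ratio of -0.80, but -0.26 by the median of its probe sets. Bcl10 and Map3k14 were chosen after their values were seen.

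The list of ubiquitin regulators has 14 genes, including Zc3h12a, which encodes the RNase regnase-1. All 14 were measured, 4 were higher in DNR Tregs and 10, Zc3h12a among them, lower. Of the 14, 0 differed by 2-fold, and the median log2 ratio was -0.19. When each gene was given the middle value of its probe sets, the list's median was 0.02, so its sign depends on the choice of probe set. The 4 on the higher side were Rnf31, Otud7b, Xiap and Birc2. Rnf31, the catalytic subunit of the linear ubiquitin ligase, had 867 in DNR Tregs and 730 in WT Tregs, a log2 ratio of 0.25. Rnf11, a subunit of the A20 complex, had 963 against 1333, a log2 ratio of -0.47, though it ranged up to -0.13 with other processing choices. Birc2, which encodes cIAP1, the close relative of cIAP2, had 6926 against 6728, a log2 ratio of 0.04, against -0.40 for Birc3.

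Of 30 genes known to be induced by NF-kappaB in lymphocytes and not in the set above, 27 were measured. In DNR Tregs 16 (59.3%) were higher and 11 lower, and 2 and 1 of these reached 2-fold. Over all measured genes 51.4% were higher, 4.00% at least 2-fold higher and 2.93% at least 2-fold lower. Cd40, Ccl3, Il2 and Ptgs2 were above the floor on 1 array only, so their ratios are bounds. The median log2 ratio was 0.15. Ccl5, a chemokine of effector T cells that also depends on T-bet, had 5383 in DNR Tregs and 906 in WT Tregs, 5.94-fold higher. Icam1, an adhesion molecule that binds LFA-1, had 4019 against 1869, 2.15-fold higher. Vcam1, an adhesion molecule known from endothelium and splenic macrophages, had 478 against 974, 2.04-fold lower, and its second probe set above the floor had a log2 ratio of -1.13. The second probe set, 1415989_at, had 151 in DNR Tregs and 330 in WT Tregs.

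Markers of other cells were also present, and bulk RNA cannot tell fewer cells of a type from less RNA per cell. The markers of macrophages and monocytes were lower in DNR Tregs, as Vcam1 was, in 7 of the 8 measured out of 10, with summed signals of 3582 in DNR Tregs and 4872 in WT Tregs. Past 2-fold were C1qa, at 330 against 788, and C1qc, at 185 against 386, while Csf1r had 1449 against 1799 and the defining gene Adgre1 252 against 275. C1qb of the same list was nearly equal, at 641 against 652. Itgam was the 1 gene on the higher side, at 135 against 11.5, where the WT value lies below the floor. Summed signals over the B cell markers were 1286 against 1113, of which Cd79b gave 869 against 666. Of the 4 B cell markers measured, 2 were higher and 2 lower. The lower ones were Ms4a1, at 76.4 against 126, and Blk, at 86.1 against 150, where the DNR values lie below the floor. The sums were 430 against 420 for dendritic cell markers, 1186 against 1056 for CD8 T and NK cell markers and 747 against 208 for neutrophil markers. These sums include signals below the floor. Most of the neutrophil sum in DNR Tregs came from S100a8, at 285 against 47.1, and Ngp, at 287 against 37.7. Their WT values lie below the floor, so they were at least 2.57-fold and 2.59-fold higher. The other neutrophil markers with a probe set were below the floor on both arrays. Cd8a had 198 against 149, and Cd8b1 of the same list 171 against 294. Itgax had 120 against 9.3 and Ncr1 168 against 9.6, where the WT values lie below the floor and the ratios above it are at least 1.08-fold and 1.51-fold. Ly6g was not analysed here. C1qa, C1qb, C1qc, Csf1r, Itgam, Cd79b, Ms4a1, Blk, Cd8b1, S100a8 and Ngp were chosen after their values were seen. Of the Treg and T cell markers all 10 were above the floor on both arrays, with summed signals of 172860 against 145060. Of the 10, 7 were higher in DNR Tregs and 3 lower, and Cd4, on the lower side, had 415 against 595. The part of other cells in any ratio given here was not tested.

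Of 12 receptors of the TNF family, 10 were measured, 6 were higher in DNR Tregs and 4 lower, with a median log2 ratio of 0.13. With signals below the floor set to it, 0 differed by 2-fold. Tnfrsf11a, at 205 in DNR Tregs against 13.9 in WT Tregs, and Cd40, at 44.2 against 149.5, were above the floor on 1 array only. Their ratios are bounds, at least 1.85-fold higher and at least 1.35-fold lower, so both may differ by 2-fold or more. Tnfrsf11a was named after its values were seen. Tnfrsf9, which encodes 4-1BB, a receptor that signals through TRAF1 and TRAF2, had 3090 in DNR Tregs and 1604 in WT Tregs, 1.93-fold higher. Tnfrsf13b, which encodes TACI, had 1158 against 1728, a log2 ratio of -0.58. The others on the lower side were Tnfrsf25, Tnfrsf1a and Cd40.

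Nfkbia and Tnfaip3 are also induced within minutes of stress or stimulation, so immediate early genes were set beside them. Of 11 such genes all 11 were measured, 4 were higher in DNR Tregs and 7 lower, 0 by 2-fold, with a median log2 ratio of -0.08. Fos, Fosb, Dusp1 and Atf3 were those on the higher side. Fos had 54911 in DNR Tregs and 51176 in WT Tregs. Dusp1, a MAP kinase phosphatase, had 66836 against 58960. Atf3, a stress-induced transcription factor, had the most positive log2 ratio of this list, 0.48. Jun had 6394 against 12780, just under 2-fold lower. Ier2, Btg2, Ier3 and Junb had log2 ratios of -0.57, -0.51, -0.45 and -0.31. Zfp36 and Egr1, the others on the lower side, were at -0.08 and -0.03. On the higher side, Fos, Fosb and Dusp1 were at 0.10, 0.10 and 0.18. The part of tissue handling in the signals of Nfkbia and Tnfaip3 was not tested.

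**Figure D3:**
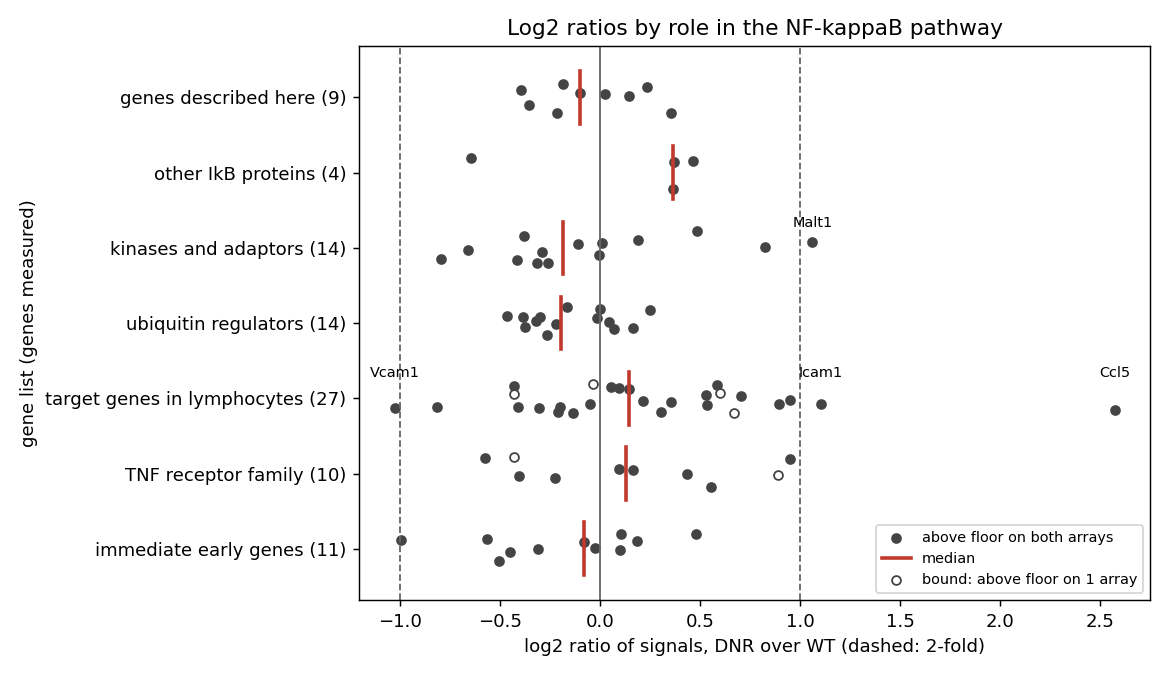
Log2 ratio of signals, DNR over WT, of each measured gene (point; open where it is a bound) by list, with the list's median as a red bar and 2-fold as dashed lines; the number of genes measured is in brackets. The 9 NF-kappaB genes in the top row all lie between the dashed lines, and the genes beyond them are Malt1, Ccl5, Icam1 and Vcam1.

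The arrays differed in some technical measures. Over all probe sets used the DNR array had a median of 110.9 and the WT array 91.0, and the 18 probe sets for hybridisation spike-ins had a median ratio of 1.95, DNR over WT. The ratio of the 3′ to the 5′ probe set for Gapdh was 2.28 with DNR RNA and 2.07 with WT RNA, and 6.31 against 4.98 for beta-actin. Their part in the ratios above was not tested.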

How the data were processed

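Total RNA of 1 DNR and 1 WT Treg sample was measured on Affymetrix mouse arrays. Per the submitters' processing notes the authors used MAS5, and the deposited values are linear signal intensities, 1 per probe set and array. Both columns have the same mean, 499.8, once 2% is trimmed at each end, so they had been scaled to each other. Of 45101 probe sets, 64 controls were set aside.

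From these values, signals below the floor (the higher of the 2 array medians, 110.9) were set to it, and log2 ratios of DNR over WT were taken with Python 3.11.15, pandas 2.3.3 and numpy 2.4.6. Probe sets with several gene names or none were left out. With 1 array per group no test was made, and precision is limited by the number of arrays. The calculation was tested on simulated data. The 10 genes and the lists were chosen with earlier results of these data known. Named were all 10 genes and, per list, those at least 2-fold different or, with none, the most different each way, besides 8 cell markers. Alternatives changed the floor, the probe set per gene, the scaling and the threshold. No build is named for the arrays, so coordinates are those of RefSeq's table.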

Additional observations from a re-analysis of the deposited data

How the results depend on the processing

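No paired analysis was possible because each genotype has 1 array. Under the 7 alternatives for floor, probe set and scaling, and with a threshold of 1.5-fold, 0 of the 9 genes passed the threshold in either direction. The 1.5-fold threshold was applied only to the brightest probe set of each gene. The second probe set of Tnfaip3, at 1.67-fold lower, was past it. Of 63 log2 ratios of single genes under the 7 alternatives, 62 moved by less than the robust SD of 0.39. The exception was Nfkb2, at -0.37 without probe sets ending in _s_at or _x_at. Many of the 63 could not move. The changes of floor left all 9 genes as they were, and leaving out those probe sets could change only Nfkb2. The median over probe sets could not change the 4 genes with 1 probe set. The count of 62 is therefore no measure of robustness. The number of the 9 genes that were higher was 2 with the median over probe sets, against 4. There Tnfaip3 was at -0.36 and Nfkb2 at -0.01, both of the opposite sign to the ratios of their brightest probe sets. The number was 3 without probe sets ending in _s_at or _x_at. It was also 3 with quantile normalization, where Tnfaip3 was at -0.06. Over all genes the counts at least 2-fold higher and lower were 477 and 350, and depended on the floor. A floor at the 40th percentile gave 1249 and 648, one at the 60th gave 263 and 262, and having none gave 3617 and 2655. At 1.5-fold they were 1526 and 1175.

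The lists were rerun under the 7 alternatives after the data had been seen. At the 40th percentile and with no floor, 2 NF-kappaB targets were at least 2-fold lower, and among TNF family receptors 1 was higher and 1 lower. With the median over probe sets, 3 targets, against 2, and 1 such receptor were higher, and 1 immediate early gene was lower. With quantile normalization 0 targets were lower, since Vcam1 was just under 2-fold, and 1 immediate early gene was. Malt1, Icam1 and Ccl5 were at least 2-fold higher under all 7. Signal near background limits the dim markers most.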
